A study of Homo sapiens with 6 samples.

Results

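The p53 family members TP63 and TP73 and 29 genes known as targets or regulators of p53 were followed in MCF-12A cells after 24 h of octanoic acid (OA). The genes were chosen by symbol, from what is known of the pathway, and all 31 were present among the 14803 genes of the count table and among the 14785 that were tested. MCF-12A is an established, non-tumorigenic human breast epithelial line. OA is a saturated fatty acid of medium chain length. There were 3 libraries from cells given OA and 3 from cells given the vehicle, phosphate-buffered saline, all grown in a mammary epithelial medium, and the labels name no genetic change in either group. Whether replicates are separate cultures is not stated, so each p-value rests on a spread between libraries that could be technical only.

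p53 is a transcription factor that is stabilised by DNA damage and other stresses. It binds a response element in the DNA near its targets and raises their transcription. The targets arrest the cell cycle, repair DNA, change metabolism or start apoptosis, and some, such as MDM2, act back on p53 and lower its level. p63 and p73 share its DNA-binding fold and can bind the same elements. In breast epithelium p63 is best known as the factor that maintains the basal cell layer. Some of the targets, GDF15 and PMAIP1 among them, are also raised by the integrated stress response, which does not need p53.

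The DNA element through which p53 is known to act is shown first, because it stood near genes that moved in opposite directions. As searched here, it consists of 2 abutting units of 10 bases, each with 3 purines, then C, 2 bases that are A or T, then G and 3 pyrimidines. Units with other bases between them were not searched for. A start site in RefSeq (GRCh38.p14) was found for 25 of the 31 genes, and 3000 bases on either side of it were searched in the hg38 genome. GADD45A, PHLDA3, RRM2B, TNFRSF10A, TNFRSF10B and TP53INP1 were not searched. Both cores had to be intact, at most 2 of the 12 other positions could differ, and the pattern reads the same on both strands. The 10 elements found lay near 9 genes. They are printed on the strand of the gene, with the core of each unit in capitals, and the elements near GDF15, CDKN1A, PMAIP1 and BTG2, which were higher in OA, come first.
GDF15, chr19:18385308-18385327, plus strand: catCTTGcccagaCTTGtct
CDKN1A, chr6:36676449-36676468, plus strand: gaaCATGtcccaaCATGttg
PMAIP1, chr18:59899549-59899568, plus strand: gggCTTGtttaccCAAGtct
BTG2, chr1:203303642-203303661, plus strand: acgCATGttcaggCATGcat
ZMAT3, chr3:179070188-179070207, minus strand: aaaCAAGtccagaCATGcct
AEN, chr15:88621306-88621325, plus strand: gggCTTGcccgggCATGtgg
CCNG1, chr5:163437926-163437945, plus strand: gcaCAAGcccaggCTAGtcc
CCNG1, chr5:163439946-163439965, plus strand: gacCTAGtcaagaCTTGctt
FAS, chr10:88991309-88991328, plus strand: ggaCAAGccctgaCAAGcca
PLK2, chr5:58462274-58462293, minus strand: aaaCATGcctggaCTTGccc

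The elements near PLK2 and ZMAT3 had 0 mismatches, the first of the CCNG1 elements had 1 and the others had 2. By GENCODE v44, the elements of AEN, BTG2, PLK2 and PMAIP1 lay upstream of the gene, and the BTG2 element fell within the divergent transcript BTG2-DT. The elements of CCNG1, GDF15 and ZMAT3 lay in introns and those of CDKN1A and FAS in exons, the FAS element also within ACTA2. An element was found in 36.0% of the 25 genes, against 3.03% of the 11056 genes of the table with a start site. With no mismatch allowed the shares were 8.0% and 0.13%. Genes are named as p53 targets partly because such elements are known in them, so these shares describe the choice of genes. An element lay near 4 of 12 genes called higher in OA, 4 of 11 called lower and 1 of 2 not called. These matches are a description and show no binding, and a gene without a match lacks only these letters in this window. The plot of element positions gives their distances.

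**Figure D1:**
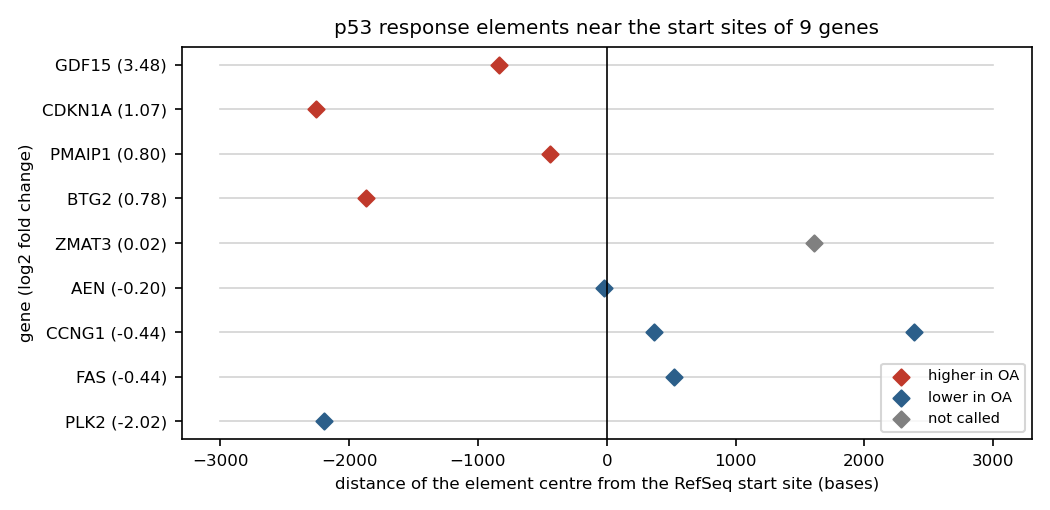
Distance in bases of each of the 10 p53 response elements from the RefSeq start site of its gene (0 on the horizontal axis, upstream to the left), with the log2 fold change of OA over vehicle beside each symbol. Relative to the RefSeq start site used, elements of genes higher in OA (red) lay upstream and those of genes lower in OA (blue) on both sides. By GENCODE v44, however, the GDF15 element lay in an intron and the CDKN1A element in an exon. Whether position went with direction was not tested. AEN, lower with TMM scaling, was not called with upper quartile scaling or library totals, where its log2 fold change was 0.03 and 0.09.

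Of the 31 genes 17 were called higher in OA and 11 lower, and 3 did not pass the test (edgeR quasi-likelihood, Benjamini-Hochberg adjusted p below 0.01 over all genes tested). In all 28 genes called, or 90.3%, the 3 OA libraries did not overlap the 3 vehicle libraries. Of all genes tested 84.5% were called and 88.8% did not overlap, so these shares are near the background. The 17 higher genes were 54.8% of the list against 43.3% of all genes tested, and the 11 lower genes were 35.5% against 41.1%. The count of genes therefore says little about the p53 targets, and the size and direction of each change are given below by role. More than 2-fold higher were GDF15, MDM2, GADD45A and CDKN1A, which are 12.9% of the genes against a background of 22.3%. More than 2-fold lower were PLK2 and TP63, or 6.45%, against 12.3%. In RNA from bulk cultures, fewer cells of a type and less RNA per cell cannot be told apart.

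The median log2 fold change of the 31 genes was 0.26, against 0.03 over all genes tested. The level was scaled by TMM, which sets the bulk of genes to no change. With upper quartile scaling the medians were 0.49 and 0.26, and with library totals only they were 0.55 and 0.32. The difference between the genes and all tested genes was 0.23 under each of these scalings. Calls of higher genes made up 51.3% of all calls with TMM, 62.6% with upper quartile scaling and 65.4% with library totals. With library totals 20 of the 31 genes were higher and 7 lower, and the 17 genes called higher with TMM were all among the 20. The sign of the estimate for AEN, DDB2 and FDXR depended on the scaling, as given beside each gene. As a sum, the 31 genes took 5182, 5273 and 5058 CPM in the OA libraries and 3351, 3319 and 3308 CPM in the vehicle libraries. CPM is the count of a gene relative to the size of its library, here scaled by TMM. The sum was higher in each OA library than in any vehicle library, but it is weighted to abundant genes. CDKN1A had a mean of 1249 CPM in OA and 596 CPM in vehicle, and MDM2 had 930 and 365 CPM. RRM2B had 533 and 288 CPM, and GDF15 had 312 and 27.9 CPM. With TMM 11 of the 31 genes were called lower, so the sum does not describe the genes as a set.

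**Figure D2:**
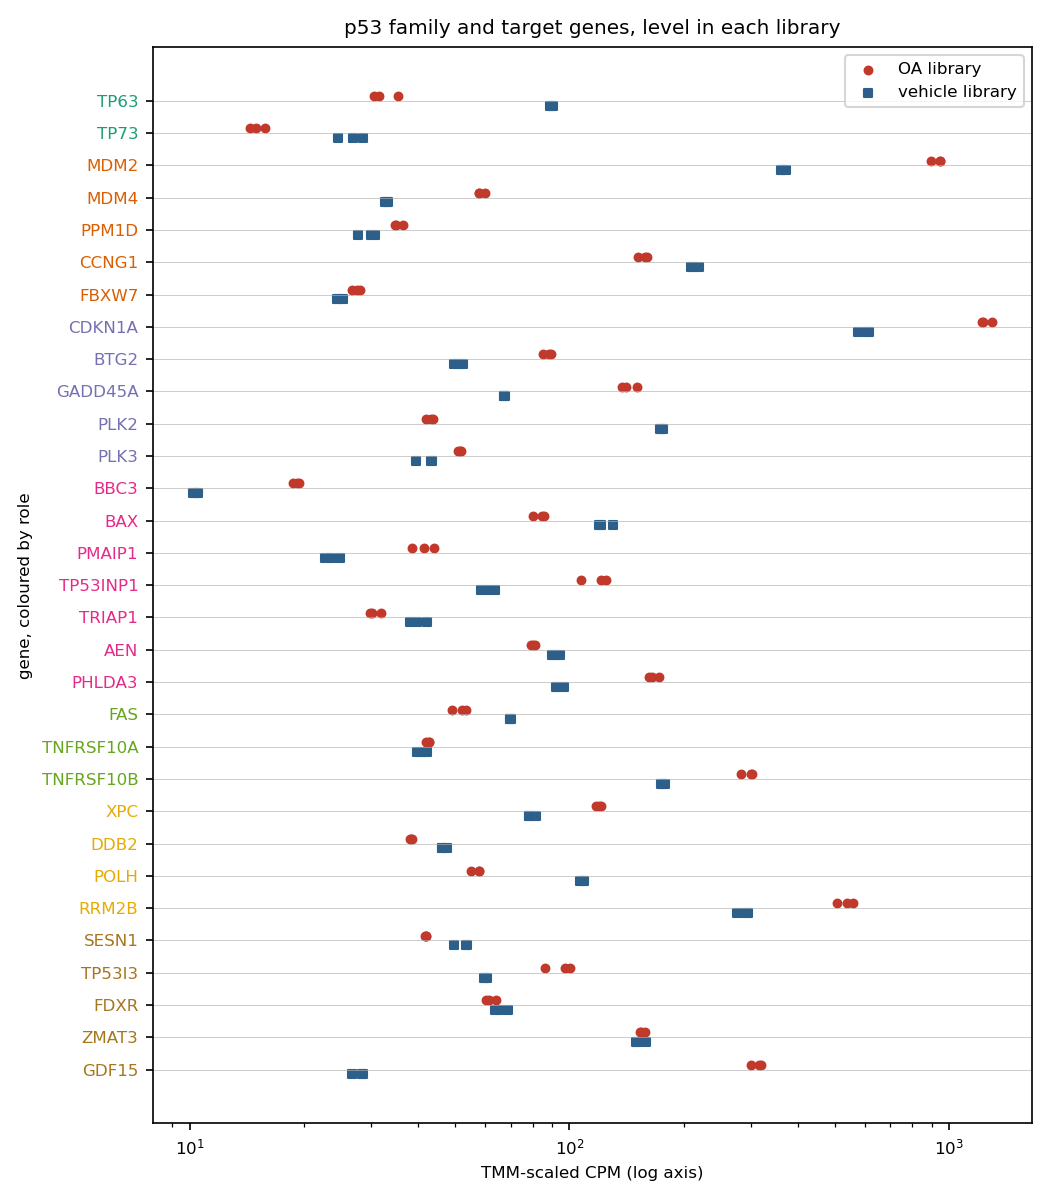
Level of each of the 31 genes in TMM-scaled CPM (log axis) in the 3 OA libraries (red circles) and the 3 vehicle libraries (blue squares), with symbols coloured by role. The groups overlap only for TNFRSF10A, FDXR and ZMAT3, and GDF15 has the widest gap, with 312 CPM in OA against 27.9 CPM in vehicle on average.

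Library totals were 47508208 to 49585010 counts in OA and 43049972 to 59935521 in vehicle, and each of the 31 genes had 413 to 71057 counts per library. Replicates of these genes lay close together, with a median coefficient of variation of 3.06% in OA and 2.65% in vehicle. The basal epithelial markers of the line were abundant, with 8 of 8 detected and a summed level of 9489 to 9839 CPM in OA and 11585 to 12045 CPM in vehicle. Of them 4 were higher and 4 lower, with a median of -0.14, which was 0.15 with library totals. For this and the next marker counts, the shares over all genes tested were 43.3% higher and 41.1% lower. The estrogen receptor gene ESR1 had 0.405 to 0.922 CPM in OA and 1.50 to 1.87 CPM in vehicle. Of 8 luminal and hormone receptor markers 6 were tested, of which 2 were higher and 3 lower. EPCAM, an epithelial adhesion molecule, rose by 0.92 on the log2 scale, while the simple epithelial keratins KRT18 and KRT8 had log2 fold changes of -0.45 and -0.23, the second being 0.06 with library totals. Hepatocyte markers were also present, with 15 of 20 in the table, 12 tested and 12 higher in OA (median 3.26), or 8 without OA replicate 3 (median 1.77). DESeq2 and limma-voom each called 4 of the 12 higher and 0 lower. Their sum was 14.3, 34.2 and 104.5 CPM in OA replicates 1, 2 and 3, against 6.93, 11.9 and 10.4 CPM in vehicle replicates 1, 2 and 3, so OA replicate 3 stood apart and OA replicate 2 was also above every vehicle library. ALB, the albumin gene, had 0.590, 10.5 and 46.6 CPM in OA replicates 1, 2 and 3, against 0.241, 2.42 and 1.53 CPM in vehicle replicates 1, 2 and 3. SERPINA1 and RBP4, which encode plasma proteins made in liver, had log2 fold changes of 0.86 and 3.17, and the fibrinogen gene FGG had 4.18. Without OA replicate 3 there were still 17 p53 pathway genes called higher and 11 lower.

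Both genes of the family itself fell. TP63 (chr3:189596746-189897279) encodes p63, which keeps basal epithelial cells in their identity. It had 31.6, 30.7 and 35.4 CPM in the OA libraries, against 90.5, 88.9 and 89.4 CPM in the vehicle libraries. The lowest vehicle library was thus well above the highest OA library, and TP63 in OA was 36.3% of its vehicle level (log2 fold change -1.46, SE 0.0439, adjusted p = 4.22e-17). It was the 753rd largest fall of 14785. TP73 (chr1:3652565-3736201), which encodes p73, a factor with proapoptotic and neuronal roles, was the least abundant of the 31 genes per length in OA. It had 14.4, 15.8 and 14.9 CPM in OA and 28.5, 27.0 and 24.6 CPM in vehicle. The groups did not overlap, and the OA level was 56.2% of vehicle (log2 fold change -0.83, SE 0.0580, adjusted p = 3.99e-11). Counts per gene do not separate the long and short isoforms of either gene, which can have opposite effects on p53 targets. About 11.5% of the exon bases of TP73 are also covered on the other strand by TP73-AS1, and reads of such overlapping genes could not be told apart. The ratio of TP63 to TP73 in levels per length within a library was 1.70 ± 0.169 in OA and 2.65 ± 0.187 in vehicle (SD, n = 3). Such ratios, given below for other pairs too, do not depend on how libraries are scaled, but the pairs were chosen after their values were seen and no test was made.

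Of 22 genes known as targets of p63 in epithelium, 15 were lower in OA, 5 were higher and 2 were not called. Over all genes tested 41.1% were lower and 43.3% higher. The median log2 fold change of the 22 genes was -0.33, but with library totals 9 were higher and 9 lower (median -0.05). The basal keratin genes KRT5 and KRT14 fell by 1.89 and 2.22 on the log2 scale. KRT5 had 1061 ± 55.3 CPM in OA and 3918 ± 50.8 CPM in vehicle (SD, n = 3). ITGA6, the integrin subunit by which basal cells hold the basement membrane, fell by 1.56. These 3 genes also stand among the basal markers above, and they were lower under each scaling.

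Of the 5 genes of feedback on p53 and protein turnover, 4 were called higher in OA and 1 lower. Over all genes tested 43.3% were called higher. A longer list of kinases, ligases and partners upstream of p53, described below, had 4 higher and 14 lower with TMM. MDM2 (chr12:68808172-68845544) is both a p53 target and the ubiquitin ligase that marks p53 for degradation. It had 946, 946 and 897 CPM in OA, against 371, 364 and 361 CPM in vehicle. All OA libraries lay far above all vehicle libraries, and the level was 2.55-fold higher (log2 fold change 1.35, SE 0.0287, adjusted p = 2.05e-19). About 12.1% of MDM2 exon bases overlap the gene CPM (carboxypeptidase M) on the other strand. MDM4 (chr1:204516379-204558120), the relative of MDM2 that holds p53 inactive on DNA, had 57.7, 57.8 and 59.9 CPM in OA and 32.7, 33.1 and 33.2 CPM in vehicle. It was 1.77-fold higher, without overlap (log2 fold change 0.83, SE 0.0376, adjusted p = 3.55e-14). The ratio of MDM2 to MDM4 per length was 21.2 ± 1.09 in OA and 14.8 ± 0.337 in vehicle (SD, n = 3). PPM1D, a phosphatase that removes damage-induced phosphates from p53 and its kinases, also rose. It had 34.9, 36.5 and 34.7 CPM in OA and 27.8, 30.7 and 30.05 CPM in vehicle, which is 1.20-fold (adjusted p = 2.39e-05).

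With TMM scaling CCNG1 fell and FBXW7 changed little. CCNG1 (chr5:163437571-163445016) encodes cyclin G1, a p53 target that recruits a phosphatase to MDM2. It had 160, 159 and 152 CPM in OA, against 209, 211 and 219 CPM in vehicle. It fell to 73.6% of its vehicle level, with no overlap (log2 fold change -0.44, SE 0.0306, adjusted p = 3.47e-11). With library totals CCNG1 was at -0.16 and still called (adjusted p = 0.000127). Both elements printed for it lie in its introns, within the first 3000 bases after the start site. FBXW7, which directs a ubiquitin ligase to cyclin E and MYC, had 28.1, 27.6 and 26.8 CPM in OA and 25.4, 24.6 and 24.4 CPM in vehicle. This was the smallest of the changes called with TMM (log2 fold change 0.15, adjusted p = 0.00507). FBXW7 was at 0.37 with upper quartile scaling (adjusted p = 1.54e-07) and 0.43 with library totals (adjusted p = 1.87e-08). It was not called with DESeq2-type size factors (adjusted p = 0.0108), with DESeq2 (0.0274), or without OA replicate 1 (0.0283), OA replicate 2 (0.0173), vehicle replicate 2 (0.0213) or vehicle replicate 3 (0.0181).

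**Figure D3:**
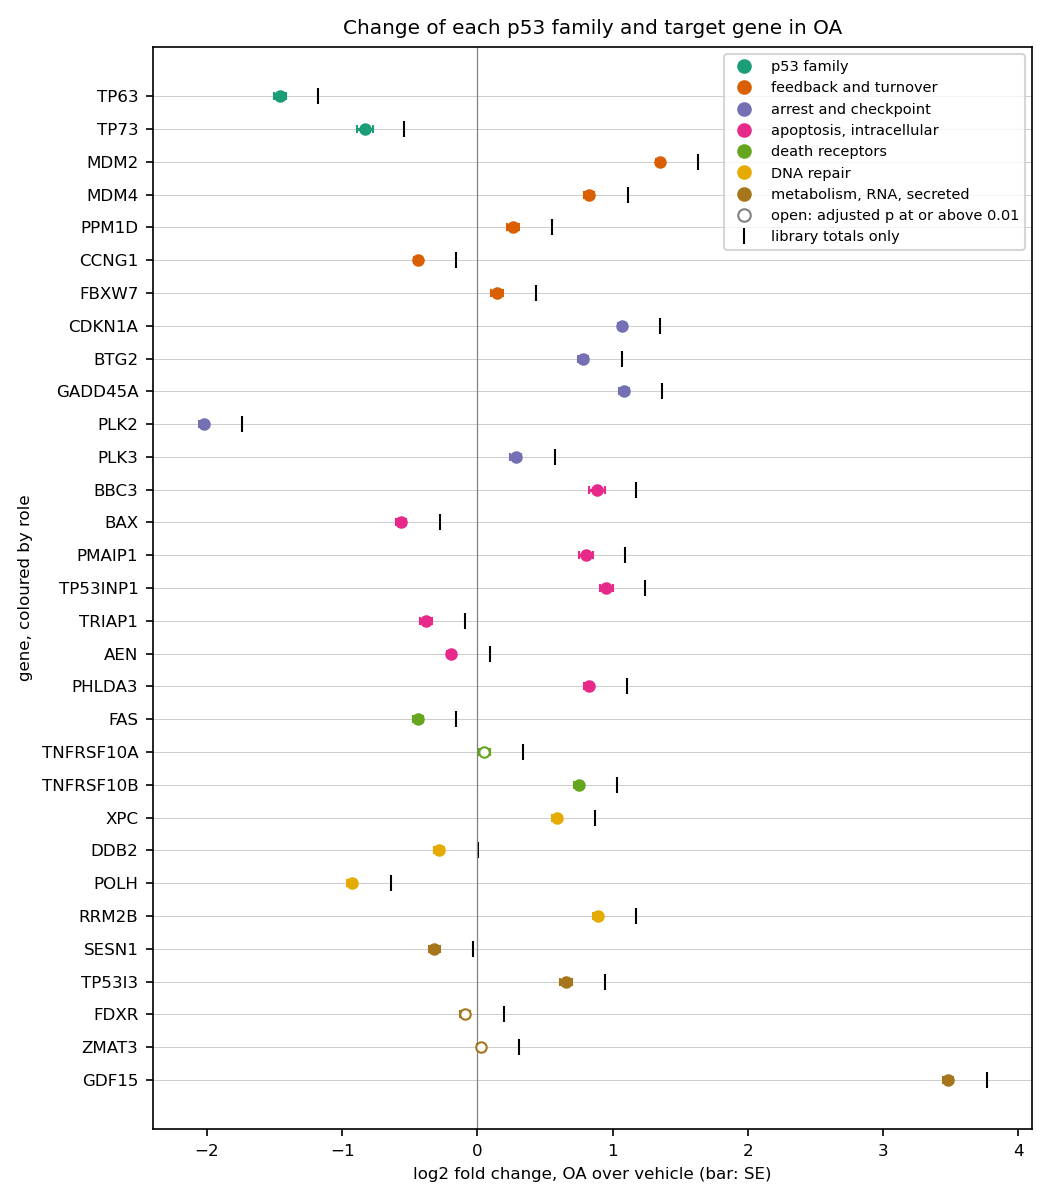
Log2 fold change of OA over vehicle for each of the 31 genes with its SE (circles, TMM scaling, open where the adjusted p was at or above 0.01), and the same with library totals only (black ticks). GDF15 at 3.48 and PLK2 at -2.02 mark the ends. Library totals shift every gene to the right, which puts AEN, FDXR and, by 0.00075, DDB2 on the other side of 0.

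Of the 5 genes of growth arrest and checkpoint control, 4 rose and PLK2 fell. Among all genes tested 43.3% were called higher and 41.1% lower, and 5 genes are few to set against these shares. CDKN1A (chr6:36676460-36687339) encodes the cyclin-dependent kinase inhibitor p21, the best known p53 target. It had 1222, 1297 and 1228 CPM in OA, against 614, 599 and 574 CPM in vehicle. The level in OA was 2.10-fold higher and the libraries were far from overlapping (log2 fold change 1.07, SE 0.0310, adjusted p = 2.45e-17). About 9.03% of its exon bases are overlapped by the antisense RNA DINOL. GADD45A (chr1:67685177-67688338), which encodes a stress sensor that binds cyclin-dependent and p38 pathway kinases, had 141, 138 and 150.2 CPM in OA and 67.1, 67.9 and 67.4 CPM in vehicle. It was 2.12-fold higher (log2 fold change 1.08, SE 0.0352, adjusted p = 1.55e-16). BTG2, an antiproliferative factor that recruits the deadenylation machinery to mRNA, had 88.3, 89.6 and 85.2 CPM in OA, against 51.0, 52.3 and 49.8 CPM in vehicle. It was 1.72-fold higher (log2 fold change 0.78, SE 0.0352, adjusted p = 3.00e-14).

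The polo-like kinase genes PLK2 and PLK3 moved in opposite directions. PLK2 (chr5:58453983-58460139) encodes a kinase of the centriole cycle that p53 is known to induce. It had 41.9, 43.2 and 43.8 CPM in OA, against 176, 174 and 174 CPM in vehicle. This fall to 24.6% of vehicle was the largest among the 31 genes (log2 fold change -2.02, SE 0.0320, adjusted p = 3.41e-21) and the 318th largest of 14785. The element upstream of PLK2 was one of the 2 with no mismatch. PLK3 (chr1:44800225-44805995), a stress-activated kinase, had 51.7, 51.5 and 50.9 CPM in OA and 43.5, 43.2 and 39.6 CPM in vehicle, a rise of 0.28 on the log2 scale (SE 0.0406, adjusted p = 1.85e-06). PLK3 per length was 1.36 ± 0.0404 times PLK2 in OA libraries, and 0.274 ± 0.0133 times PLK2 in vehicle libraries (SD, n = 3), so their order was reversed. CDKN1A per length was 7.46 ± 0.265 times CCNG1 in OA and 2.62 ± 0.151 times CCNG1 in vehicle.

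Of 7 genes of the intracellular apoptosis pathway 4 rose and 3 fell, against 43.3% higher and 41.1% lower over all genes tested. Of the 3 that fell, AEN was not called with upper quartile scaling or library totals, where its estimate was above 0. TRIAP1 was not called with library totals. BBC3 (chr19:47220822-47232766) encodes PUMA and PMAIP1 (chr18:59899960-59904306) encodes NOXA, BH3-only proteins that neutralise the survival members of the BCL2 family. BBC3 had 19.2, 19.4 and 18.7 CPM in OA, against 10.3, 10.2 and 10.5 CPM in vehicle, and was 1.85-fold higher (log2 fold change 0.88, SE 0.0567, adjusted p = 1.00e-11). PMAIP1 had 44.05, 38.6 and 41.4 CPM in OA, against 22.7, 24.8 and 23.5 CPM in vehicle, and was 1.75-fold higher (log2 fold change 0.80, SE 0.0516, adjusted p = 9.81e-12). BAX (chr19:48954860-48961798), the effector that opens the mitochondrial outer membrane, moved the other way. It had 80.4, 86.0 and 84.7 CPM in OA and 130.3, 119.8 and 121 CPM in vehicle, which is 67.6% of vehicle (log2 fold change -0.57, SE 0.0369, adjusted p = 1.36e-11). No library of 1 group reached the other for any of these 3 genes. Per length, PMAIP1 was 0.334 ± 0.0334 times BAX in OA and 0.129 ± 0.0112 times BAX in vehicle. BBC3 was 0.142 ± 0.00548 times BAX in OA and 0.0522 ± 0.00254 times BAX in vehicle (SD, n = 3).

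TP53INP1, a stress protein that links p53 to cell death and autophagy, had 125, 121 and 107 CPM in OA and 58.5, 60.7 and 63.8 CPM in vehicle. It was 1.94-fold higher (log2 fold change 0.95, SE 0.0472, adjusted p = 1.43e-13). PHLDA3, which competes with the kinase AKT for membrane lipids, had 162, 172 and 165 CPM in OA and 96.9, 92.0 and 92.5 CPM in vehicle. It was 1.77-fold higher (log2 fold change 0.82, SE 0.0330, adjusted p = 4.34e-15), and 21.2% of its exon bases lie in another, unnamed gene model on the same strand. TRIAP1, a small mitochondrial protein that restrains apoptosis, was lower, with 30.2, 32.0 and 29.9 CPM in OA and 39.6, 38.0 and 42.3 CPM in vehicle. Its log2 fold change was -0.38 (adjusted p = 2.16e-07), but with library totals it was -0.09 and was not called (adjusted p = 0.0698). AEN, a nuclease that cuts DNA and RNA in dying cells, had 81.4, 80.4 and 79.3 CPM in OA and 94.6, 91.4 and 89.8 CPM in vehicle. The log2 fold change was -0.20 with TMM (adjusted p = 1.36e-05), 0.03 with upper quartile scaling (adjusted p = 0.348) and 0.09 with library totals (adjusted p = 0.0141).

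The 3 death receptors, which start apoptosis from the cell surface, went in different directions. TNFRSF10B, the TRAIL receptor known as DR5, had 301, 303 and 284 CPM in OA, against 179, 174 and 176 CPM in vehicle. It was 1.68-fold higher without overlap (log2 fold change 0.75, SE 0.0306, adjusted p = 6.22e-15), and RHOBTB2 overlaps 9.01% of its exon bases on the other strand. FAS (chr10:88990559-89017061), the receptor of FAS ligand, had 52.0, 53.3 and 49.2 CPM in OA and 70.0, 70.0 and 70.1 CPM in vehicle. It was at 73.6% of vehicle (log2 fold change -0.44, SE 0.0367, adjusted p = 6.32e-10), and ACTA2 overlaps 16.1% of its exon bases on the other strand. TNFRSF10A, the other TRAIL receptor with a death domain, had 42.8, 42.7 and 41.9 CPM in OA and 42.2, 40.9 and 39.7 CPM in vehicle. These groups overlapped, and the log2 fold change was 0.05 (95% interval -0.03 to 0.13, adjusted p = 0.221). With upper quartile scaling it was 0.28 and with library totals 0.34, and both were called. Whatever the scaling, TNFRSF10B was 5.91 ± 0.0555 times FAS per length in OA and 2.59 ± 0.0361 times FAS in vehicle (SD, n = 3).

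Genes of DNA repair and nucleotide supply were split, with 2 higher and 2 lower, against 43.3% and 41.1% of all genes tested. Of the lower pair DDB2 was at 0.00075 on the log2 scale with library totals. RRM2B, the p53-induced subunit of ribonucleotide reductase, had 557, 537 and 505 CPM in OA, against 277, 292 and 295 CPM in vehicle. It was 1.85-fold higher and held rank 5 of the 31 genes per length in both groups (log2 fold change 0.89, SE 0.0347, adjusted p = 2.90e-15). POLH (chr6:43576141-43620523), the polymerase that copies past ultraviolet lesions, had 57.8, 57.9 and 54.9 CPM in OA, against 109, 109 and 107 CPM in vehicle. It was at 52.6% of vehicle, without overlap (log2 fold change -0.93, SE 0.0334, adjusted p = 7.67e-16). The damage sensors of nucleotide excision repair, XPC and DDB2, also parted. XPC (chr3:14145148-14178672) had 121, 119 and 117 CPM in OA and 78.5, 78.3 and 81.7 CPM in vehicle, which is 1.50-fold (log2 fold change 0.59, SE 0.0317, adjusted p = 6.06e-13). The antisense gene XPC-AS1 overlaps 28.3% of XPC exon bases. DDB2 (chr11:47214942-47239218) had 38.0, 38.6 and 38.3 CPM in OA and 47.5, 46.3 and 46.1 CPM in vehicle. Its log2 fold change was -0.28 with TMM (adjusted p = 6.17e-07) and -0.06 with upper quartile scaling, where it was not called (adjusted p = 0.152). Per length, XPC was 1.48 ± 0.0280 times DDB2 in OA and 0.813 ± 0.0295 times DDB2 in vehicle, so the more abundant of the pair differed between groups. RRM2B was 15.1 ± 0.376 times POLH in OA and 4.31 ± 0.183 times POLH in vehicle (SD, n = 3).

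The last group holds targets in metabolism, RNA binding and secretion. GDF15 (chr19:18385960-18389177) encodes a secreted cytokine of the TGF-beta family that is raised by many stresses and acts on appetite through the brainstem. It had 300.5, 316 and 320.0 CPM in OA, against 28.4, 28.6 and 26.7 CPM in vehicle. Every OA library lay far above every vehicle library, and the level was 11.2-fold higher (log2 fold change 3.48, SE 0.0376, adjusted p = 2.59e-23). It was the largest change among the 31 genes and the 613th largest rise of 14785. TP53I3, a quinone oxidoreductase, had 97.1, 100.6 and 86.2 CPM in OA and 60.8, 59.6 and 60.0 CPM in vehicle. It was 1.57-fold higher (log2 fold change 0.65, SE 0.0451, adjusted p = 3.18e-11). SESN1, a sestrin that restrains the growth kinase mTORC1, had 41.9, 41.8 and 41.9 CPM in OA and 49.6, 53.5 and 53.8 CPM in vehicle. It fell by 0.32 on the log2 scale with TMM (adjusted p = 2.87e-07), but by 0.09 with upper quartile scaling (adjusted p = 0.0383) and 0.03 with library totals (adjusted p = 0.443).

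FDXR and ZMAT3 did not pass the test, and their libraries overlapped between groups. FDXR, the reductase that feeds electrons to mitochondrial cytochromes P450, had 61.4, 64.2 and 60.3 CPM in OA and 68.8, 65.7 and 63.6 CPM in vehicle. Its log2 fold change was -0.09 (95% interval -0.17 to -0.01, adjusted p = 0.0281). DESeq2-type size factors gave -0.11 and a call (adjusted p = 0.00988), whereas upper quartile scaling gave 0.13 (adjusted p = 0.00247) and library totals 0.19 (adjusted p = 8.34e-05), calls in the opposite direction. ZMAT3, an RNA-binding protein, had 154, 158 and 155 CPM in OA and 150.4, 149 and 159 CPM in vehicle. Its log2 fold change was 0.02 (95% interval -0.04 to 0.09, adjusted p = 0.463), but 0.25 with upper quartile scaling and 0.31 with library totals, both called. The ZMAT3 element printed above was the other one with no mismatch.

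Levels of different genes were compared per kb of gene length. CDKN1A was at rank 1 of the 31 genes in both groups, at 473 CPM per kb in OA and 226 CPM per kb in vehicle. GDF15 was at rank 2 in OA with 223 CPM per kb, against rank 17 in vehicle with 19.95 CPM per kb. MDM2 was at rank 3 in OA, with 123 CPM per kb, against rank 7 in vehicle, with 48.3 CPM per kb. BAX was at rank 7 in OA and rank 2 in vehicle, and CCNG1 at rank 8 in OA and rank 3 in vehicle. PLK2 was at rank 22 in OA with 15.1 CPM per kb, against rank 4 in vehicle with 61.6 CPM per kb. At the low end, TP73 was last in OA at 2.73 CPM per kb and MDM4 was last in vehicle at 3.27 CPM per kb. GADD45A and RRM2B in OA, at 104 and 102 CPM per kb, and BAX and CCNG1 in OA, at 64.1 and 63.5 CPM per kb, did not differ beyond their spread. GDF15 per length was 0.472 ± 0.0171 times CDKN1A in OA and 0.0883 ± 0.00146 times CDKN1A in vehicle (SD, n = 3). In vehicle the 31 genes lay between the 38.3rd and the 98.4th percentile of all genes tested, with a median of 75.5. Across the 31 genes the vehicle level per length and the log2 fold change had a Spearman correlation of 0.06. Across all 14785 genes it was -0.63, and both describe values that share the same vehicle libraries. The 31 genes hold none below the 38.3rd percentile, and all genes were not restricted to that range, so the 2 correlations are not like for like.

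**Figure D4:**
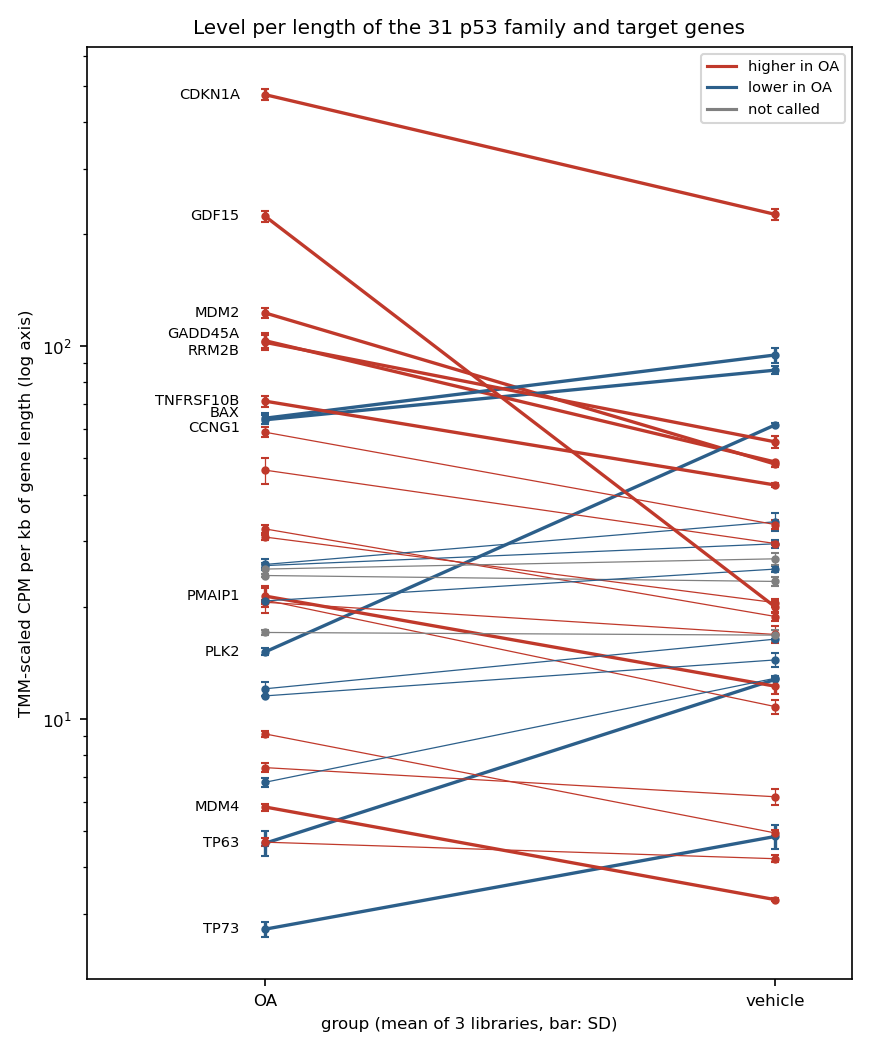
Level per length of the 31 genes, in TMM-scaled CPM per kb (log axis), as the mean of 3 OA libraries (left) and 3 vehicle libraries (right) with bars for the SD. GDF15 was at rank 2 in OA and rank 17 in vehicle, and PLK2 at rank 22 in OA and rank 4 in vehicle, while CDKN1A was at rank 1 in both. Colours give the calls with TMM scaling, and AEN and DDB2 were not called with library totals, where their estimates were above 0.

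Other parts of the pathway were taken from further lists. Of 49 other p53 targets that were tested, 22 were higher, or 44.9%, and 18 were lower, or 36.7%, with a median of -0.03. These shares are near the 43.3% and 41.1% of all genes tested, so the split is not a result about these targets. Those with the smallest p were PRDM1, THBS1 and CYFIP2. PRDM1, a transcriptional repressor of differentiating cells, had 58.5 ± 2.32 CPM in OA and 12.6 ± 0.461 CPM in vehicle (SD, n = 3). CYFIP2, a regulator of the actin cytoskeleton, was 3.64-fold higher, and THBS1, the matrix protein thrombospondin, was at 39.7% of vehicle. With library totals, where 65.4% of the calls over all genes were of higher genes, 30 of these targets were higher and 13 lower (median 0.25). Of 24 kinases, ligases and partners upstream of p53, 14 were lower and 4 higher (median -0.20), but with library totals 9 were lower and 11 higher (median 0.08). ATR and CHEK1, the kinases of the replication checkpoint, fell by 1.53 and 1.06 on the log2 scale, and PRKDC, the DNA-dependent kinase of end joining, fell by 1.30.

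Cell cycle genes that p53 and p21 are known to repress through the DREAM complex moved together. All 20 were lower in OA, with a median of -3.42, and 20 of 20 fell more than 2-fold. The shares over all genes tested were 41.1% and 12.3%. The spindle checkpoint kinase gene BUB1 had 14.8 ± 1.11 CPM in OA, against 186 ± 3.76 CPM in vehicle (SD, n = 3). BIRC5, which encodes survivin, had 11.6 ± 0.921 CPM in OA, against 146 ± 2.60 CPM in vehicle. CCNA2, the cyclin of replication and mitotic entry, was at 5.41% of vehicle. Of 20 genes of the integrated stress response, 16 were higher and 2 lower, with a median of 0.96, and 10 were more than 2-fold higher. Over all genes tested 43.3% were higher, 41.1% lower and 22.3% more than 2-fold higher. PPP1R15A, the phosphatase subunit that reverses the response, was 8.88-fold higher. The transcription factor gene ATF3 was 9.35-fold higher and the pseudokinase gene TRIB3 3.92-fold. An element of the kind printed above was found near 0 of the 18 genes of this list with a start site. Over the 11056 genes of the table with a start site the share was 3.03%, so 0 of 18 is near the background. Of the 40 other p53 targets with a start site 17.5% had an element, a share that again describes the choice of genes. How far the integrated stress response or p53 itself took part in the changes of the 31 genes was not tested. Whether p53 or p21 took part in the fall of the cell cycle genes was not tested either.

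**Figure D5:**
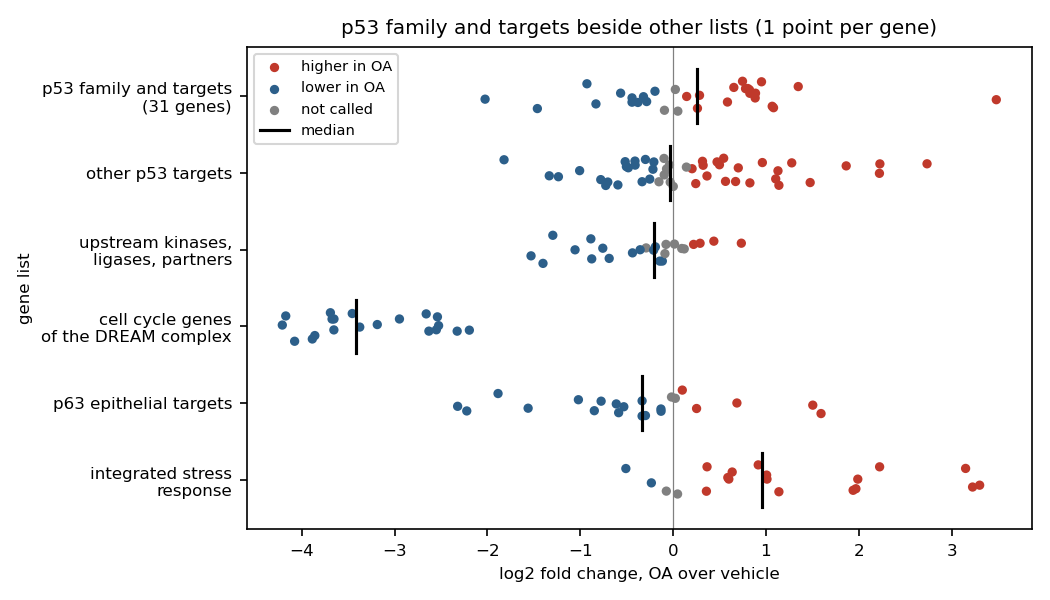
Log2 fold change of OA over vehicle for single genes of 6 lists (1 point a gene, jittered vertically, with the median as a black line), with TMM scaling. The 31 genes spread from -2.02 to 3.48 around a median of 0.26, the 20 cell cycle genes all lie to the left of 0, and the 20 integrated stress response genes have a median of 0.96. With library totals every list shifts to the right, and the medians of the other p53 targets (0.25) and of the upstream genes (0.08) are then above 0.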

How the data were processed

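Raw counts per gene were deposited for 6 MCF-12A libraries, 3 with OA and 3 with vehicle, beside the authors' gene length. Per the labels and the study's methods, the authors used STAR 2.5 on hg38, counted reads with featureCounts 1.5.1 and left out multi-mapped and low-quality reads. FastQC, MultiQC 0.11.5, Subread and edgeR 3.30.3 are named in the submitters' processing notes. Read length and layout differ between sources. Strand setting, the OA dose for MCF-12A and the rule by which genes with few counts were removed (lowest row total 14) are not given in the sources used here.

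R 4.3.3 and edgeR 4.0.16 were used, with TMM scaling, filterByExpr (14785 genes tested), the two-sided quasi-likelihood test without covariates, and Benjamini-Hochberg adjustment over all genes at a false discovery rate of 0.01. The SE was the log2 fold change divided by the square root of F. Totals of 43049972 to 59935521 counts gave the 31 genes a median SE of 0.0375. Replicates of 1 group differed beyond counting noise (chi-square divided by its degrees of freedom 2.73 to 6.61), so none was a recount of the same library. This check cannot tell separate cultures from separate libraries of 1 culture.

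The text names all 31 genes and, from each further list, the 3 with the smallest p among those called with at least 1 CPM. The genes and lists were chosen with earlier results of these data known. Some lists share genes. Alternatives were 3 other scalings, 2 other filters, edgeR's likelihood ratio test (the study's own), DESeq2 1.42.0, limma-voom (limma 3.58.1), a replicate block, omission of each library and a false discovery rate of 0.05. Steps were tested on simulated data. Sequences were read from hg38 around RefSeq start sites, whose promoter entries all matched the genome.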

Additional observations from a re-analysis of the deposited data

How the results depend on the processing

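Over the 31 genes and 15 alternatives to the fit, 444 of 465 log2 fold changes kept their direction and their side of the threshold, 11 lost the call, 5 gained it and 5 changed sign. Those that changed sign were AEN (0.032) and FDXR (0.13) with upper quartile scaling, and AEN (0.091), FDXR (0.19) and DDB2 (0.00075) with library totals. The median of all genes was 0.26 and 0.32 under these scalings, against 0.03 with TMM, and the median of the 31 genes was 0.49 and 0.55, against 0.26. Library totals left 7 genes lower. Leaving out 1 library at a time gave 16 to 17 genes higher, 11 lower in each case, and a median of 0.22 (without vehicle replicate 1) to 0.29. Libraries of the same number in the 2 groups did not deviate together (correlations of 0.08, 0.01 and -0.03), so they were not treated as pairs. A replicate block gave 16 genes higher, 11 lower and a median of 0.26, and only FBXW7 lost its call (adjusted p = 0.0115). At a false discovery rate of 0.05, 17 were higher and 12 lower. With 413 or more counts per library and gene, SEs were 0.0287 to 0.0580. The choice of scaling decided the call or direction of AEN, DDB2, FBXW7, FDXR, SESN1, TNFRSF10A, TRIAP1 and ZMAT3.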
